A study of Mus musculus with 102 samples.

Results

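Regions of mouse embryonic stem (ES) cells that carried both H3K4me1 and H3K4me3 but no listed H3K27ac were described from deposited chromatin immunoprecipitation sequencing (ChIP-seq) tables. They were chosen by the marks listed in the table of 129/Ola ES cells, as the regions in which both H3K4 marks were present and H3K27ac was not. There were 2158 of them, 11.7% of the 18425 regions with both marks and 3.19% of all 67697 regions. The other 16267 regions with both marks had H3K27ac and are called acetylated here. The 3 marks that chose the regions are therefore a description, and the 17 factors of the same table and the marks of another cell line were not used to choose them.

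The series set out to find proteins that co-localise with H3K4me1 and to test whether they need it. The regions came from ES cells of strain 129/Ola with no genotype given, which were grown on feeder cells and passaged without feeders before fixation. The labels give 2 libraries for H3K27ac, 3 for H3K4me1, 2 for H3K4me3, and 35 for the 17 factors, of which 14 had 2 libraries, 2 had 3 and SSRP1 had 1. H3K4 methylation was also profiled in R1 ES cells of strain 129SV that were wild type or MLL3/4 double catalytic dead (the mutant line below), with 2 libraries per mark and line. R1 cells were cultured on mouse embryonic fibroblast feeders with leukemia inhibitory factor. Nothing in the labels says that numbered replicates came from separate cultures, or whether the mutant line is 1 clone. The tables give 1 value per factor or line and no counts. The depth is therefore unknown, there is no spread between libraries, and no test between groups was possible. The 95% intervals below cover counting over regions only and treat regions as independent, which neighbouring regions are not.

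H3K4me3 marks promoters, H3K4me1 marks enhancers and the flanks of promoters, and H3K27ac is laid down at active elements of both kinds by the acetyltransferases CBP and p300. MLL3 and MLL4 are the main H3K4 monomethyltransferases of enhancers, while other enzymes of the family place much of the methylation at promoters. Most of the factors belong to chromatin remodellers, the Mediator and cohesin complexes that link enhancers with promoters, histone chaperones and proteins of splicing.

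A factor or H3K27ac was listed at a region only above a log2 enrichment of 0.585, a 1.5-fold enrichment, so a region without listed H3K27ac was below that limit or was not scored. Nothing in the table states the unit: the values were read as log2 because the lowest one listed equals the log2 of 1.5, and every factor value here rests on that reading. The nearest regions on the other side of the limit had H3K27ac log2 enrichments of 0.59 (chr9:43686873-43688650), 0.60 (chr6:13788474-13789626) and 0.60 (chr2:172552154-172554767). These held 3, 3 and 5 of the 17 factors. Coordinates are 1-based in mouse build mm9. A genome or gene annotation of that build was not used here, so regions are given by position and without gene names.

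The regions without H3K27ac held fewer factors than the acetylated ones, but were far from empty. Their mean was 6.83 ± 3.56 of 17 factors (SD over 2158 regions), and that of acetylated regions was 9.54 ± 3.71 (SD over 16267 regions). They lay above both classes that lacked H3K27ac and had a single H3K4 mark: regions with H3K4me3 alone held 4.77 ± 3.31 factors (n = 753) and regions with H3K4me1 alone held 2.17 ± 2.40 (n = 22402). At least 10 factors were listed at 509 regions without H3K27ac (23.6%, Wilson interval 21.8% to 25.4%) and at 53.7% of acetylated regions. At most 3 factors were listed at 428 of them (19.8%, 18.2% to 21.6%), against 6.82% of acetylated regions. No factor at all was listed at 57 (2.64%), against 0.916% of acetylated regions.

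**Figure D1:**
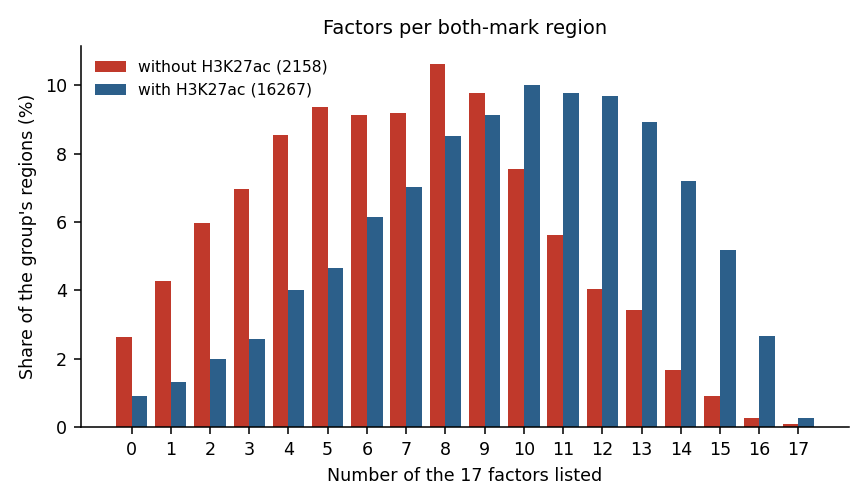
Distribution of the number of the 17 factors listed per region (x axis) as the share of each group's regions in percent (y axis), for both-mark regions without H3K27ac (2158, red) and with it (16267, blue). The red distribution has its median at 7 factors and the blue one at 10.

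Read the other way, the share of both-mark regions that lacked H3K27ac fell with the number of factors. It was 27.7% among regions with no factor, 29.9% among those with 1 factor and 1.37% (6 of 438) among those with 16. At the top end, 2 of the 45 regions with all 17 factors lacked H3K27ac, which is 4.44% with an interval of 1.23% to 14.8%.

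Those 2 regions show that a full set of factors occurred without listed H3K27ac. The first, chr7:95278536-95279235, was 700 bp wide and lay 147 kb from the nearest region with H3K27ac. Its log2 enrichments ran from 0.96 for SRSF2 to 1.53 for BAZ1A. The second, chr18:37650945-37651244, was 300 bp wide and 4.2 kb from the nearest region with H3K27ac. Its highest values were 2.25 for BAF155 and then those of PHRF1 and SSRP1, the latter at 1.99. Another region, chr14:56983255-56984308, had 16 factors and lacked only WSTF, a partner of the ISWI remodeller. H3K4me1 was higher in the R1 mutant line at all 3, as it was at 83.0% of the 1760 regions with an R1 H3K4me1 peak. The fold enrichment went from 2.35 to 5.79 at the first, from 1.70 to 4.57 at the second and from 2.47 to 5.20 at the third.

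The lower factor content ran through nearly all proteins. Of the 17 factors, 16 were listed at a smaller share of the regions without H3K27ac than of acetylated regions. The mean difference was -15.9 percentage points, with an SD over factors of 8.09 points. With factors counted only from a log2 enrichment of 1, 16 of 17 were again lower but the mean difference was -9.85 points. The difference for MED12 then went from -11.1 to -2.17 points, for RUVBL1 from -20.2 to -5.73 and for MED1 from -21.7 to -8.67. For 11 factors the share was lower on each of the 20 chromosomes. The order of the factors was much alike in both groups, with a Spearman rho of 0.936 across the 17 shares, which come from the same libraries and regions. Against regions with H3K4me3 alone and no H3K27ac, 16 of the 17 factors were listed more often, and against regions with H3K4me1 alone and no H3K27ac all 17 were.

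**Figure D2:**
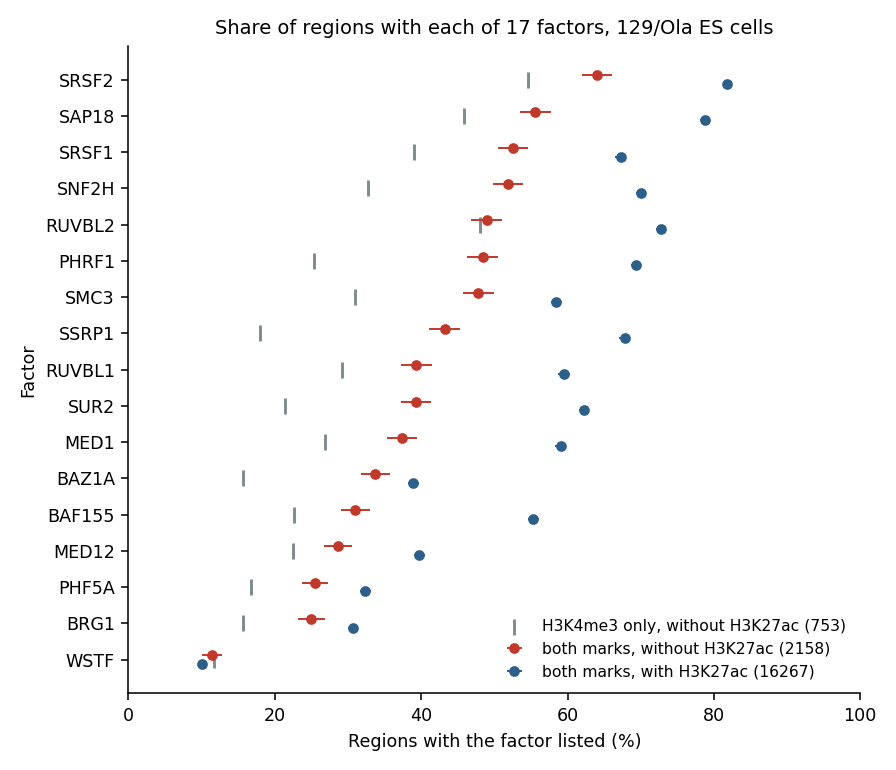
Share of regions with each factor listed (x axis, percent; y axis, the 17 factors) in 129/Ola ES cells, with 95% Wilson intervals for both-mark regions without (red) and with (blue) H3K27ac and a tick for regions with H3K4me3 only. From SRSF2, at 64.0% against 81.8%, down to BRG1, at 24.98% against 30.7%, the red points lie left of the blue ones, and WSTF is the exception.

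Among the remodellers, the BAF (SWI/SNF) complex was represented by its scaffold BAF155 and its ATPase BRG1. BAF155 had the lowest ratio of the 17, being listed at 31.0% of regions without H3K27ac and 55.3% of acetylated ones, a ratio of 0.559. BRG1 was listed at 24.98% and 30.7%. Both subunits together were found at 9.78% and 19.4%. The RUVBL ATPases, which are shared by the INO80, SRCAP and TIP60 complexes, were found together at 24.9% against 49.7%. RUVBL2 alone was at 48.9% against 72.8% and RUVBL1 at 39.3% against 59.5%.

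The ISWI proteins varied in their difference. SNF2H, the ISWI ATPase, was listed at 51.9% against 70.0%. BAZ1A, a subunit that pairs with SNF2H in the ACF remodeller, was at 33.7% against 38.9%. WSTF, which pairs with SNF2H in another ISWI complex, was at 11.4% against 9.996%, a difference of 1.36 points with an interval of 0.00 to 2.84. When acetylated regions were weighted to the widths of the others, the WSTF difference became -1.45 points and all 17 factors were lower, with the mean still at -15.9 points. Of the other 16, the 3 with the smallest differences moved most: BAZ1A went from -5.24 to -13.7 points, BRG1 from -5.72 to -12.4 and PHF5A from -6.93 to -13.8. WSTF was listed at a log2 enrichment of 2 or more at 35 regions without H3K27ac, 14.3% of the 245 where it was listed, and at 10.6% of its acetylated regions. Its regions without H3K27ac were narrow, with a median of 355 bp, as were those of BRG1 (329 bp), PHF5A (338 bp) and BAZ1A (357 bp).

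The Mediator, which bridges activators and RNA polymerase II, was represented by MED1, MED12 and SUR2. At least 1 of these was listed at 67.5% of the regions without H3K27ac and 83.6% of acetylated ones, and all 3 at 7.92% and 22.2%. SUR2 was at 39.2% against 62.2%, MED1 at 37.3% against 59.1% and MED12, of the kinase module, at 28.6% against 39.8%. SMC3, a core subunit of the cohesin ring, differed less than most, at 47.8% against 58.5%. SSRP1 of the FACT histone chaperone, which acts at transcribed chromatin, had the largest difference in points, -24.6, at 43.2% against 67.8%. It was measured in 1 library.

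SRSF2, SAP18 and SRSF1, all known from splicing, were the 3 factors listed most often at these regions. The splicing factor SRSF2 was at 64.0% against 81.8%, SAP18, which is found with both histone deacetylase and splicing complexes, at 55.6% against 78.8%, and the splicing factor SRSF1 at 52.5% against 67.2%. At least 1 of these 3 was listed at 86.6% of the regions without H3K27ac and all 3 at 25.4%, against 95.5% and 50.6%. The PHD and RING finger protein PHRF1 was at 48.4% against 69.3%. PHF5A, a PHD-finger-like subunit of the splicing complex SF3b, was at 25.4% against 32.4%.

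Where a factor was listed, its enrichment was close to that at acetylated regions. The median listed value was lower at regions without H3K27ac for 12 of the 17 factors, and the differences ran from -0.08 to 0.07 on the log2 scale. SSRP1 had medians of 1.08 and 1.15, SNF2H 1.04 and 1.11, and WSTF 1.17 and 1.10. These medians are over listed values only and say nothing of the values under the limit. With values of 1 or more alone, 5 of the 17 medians were lower, so the count of 12 depended on that limit.

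Factors shared regions weakly within the group. The highest association of any pair was that of PHRF1 with SSRP1, a phi coefficient of 0.281 over the 2158 regions: SSRP1 was listed at 57.6% of regions with PHRF1 and 29.7% of those without. Next came PHRF1 with SRSF1 (0.237), RUVBL2 with SAP18 (0.237), SNF2H with SUR2 (0.233), PHRF1 with SNF2H (0.233) and RUVBL1 with RUVBL2 (0.233). At acetylated regions the coefficient of PHRF1 with SSRP1 was 0.336. Those of the other pairs named, in the same order, were 0.247, 0.285, 0.280, 0.283 and 0.291. Weak sharing was therefore not particular to regions without H3K27ac. All listings come from the same regions and the same listing limit, and the coefficients are given as a description.

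The regions without H3K27ac were narrow. Their median width was 538 bp (interval 507 to 583 bp, range 181 to 12718 bp), against 1176 bp (1153 to 1204 bp) for acetylated regions and 413 bp for regions with H3K4me1 alone and no H3K27ac. Of both-mark regions up to 250 bp, 23.1% (414 of 1792) lacked H3K27ac. The share then went down in every wider class to 3.51% (69 of 1967) above 4000 bp.

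The gap in factor content was widest at wide regions. Up to 250 bp the mean was 7.22 factors without H3K27ac and 9.03 with it. Above 4000 bp it was 2.52 and 7.81. Of the 69 regions above 4000 bp without H3K27ac, 23 had no factor listed and 48 (69.6%) had at most 3, against 17.8% of the 1898 acetylated regions of that width. The mean difference over the 17 factors was -11.0 ± 3.48 points (SD over factors) at regions up to 500 bp, -18.9 ± 6.52 points above 500 and up to 2000 bp and -25.8 ± 12.8 points above 2000 bp. The division into 3 width classes was chosen after the values were seen.

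**Figure D3:**
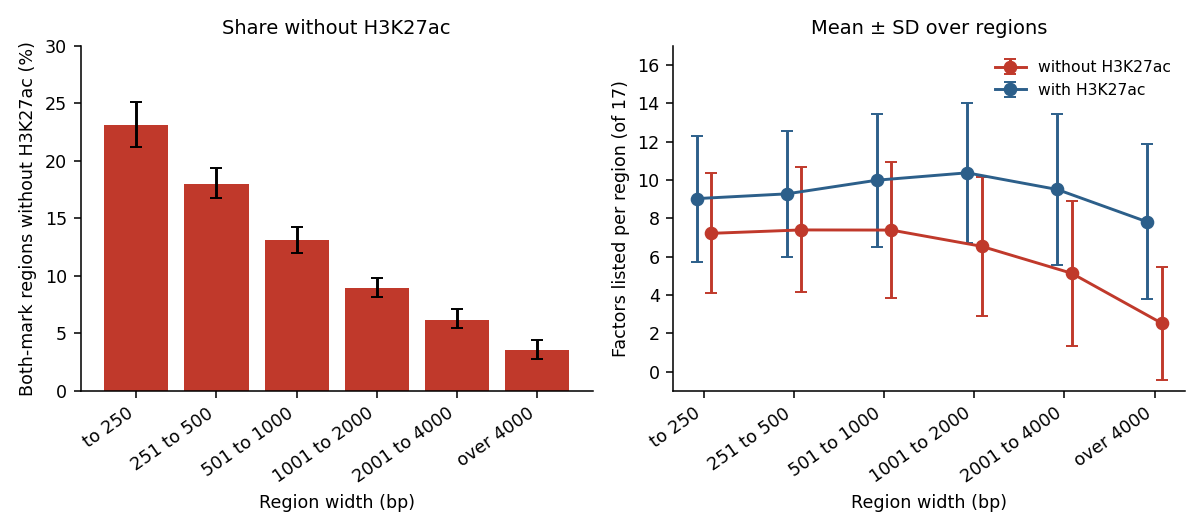
Left, share of both-mark regions without H3K27ac in percent by region width in bp, with 95% Wilson intervals. Right, factors listed per region (mean ± SD over regions) by width, for regions without (red) and with (blue) H3K27ac: the means are 7.22 and 9.03 in the narrowest class and 2.52 and 7.81 in the widest.

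Above 2000 bp the factors differed in how much less often they were listed. RUVBL2 was listed at 37.1% of the 272 regions without H3K27ac and 76.8% of acetylated regions, SSRP1 at 29.4% and 68.9%, and SUR2 at 24.6% and 62.1%. SAP18, at 51.1%, SRSF2, at 54.0%, and SMC3, at 43.4%, were the most often listed there. BRG1, at 3.68%, and BAZ1A, at 5.88%, were rare at such wide regions, and were also uncommon at wide acetylated regions, at 12.8% and 17.1%. The median width of regions without H3K27ac was 329 bp with BRG1 and 713 bp without it. For BAF155, of the same complex, it was 605.5 bp with and 510.5 bp without.

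The 3 widest regions without H3K27ac had none of the 17 factors. They were chr17:24266721-24279438 (12718 bp), chr10:116579194-116589339 (10146 bp) and chr2:180646048-180655690 (9643 bp). H3K4me3 at these was high in R1 cells of both lines, with fold enrichments of 12.1 (wild type) and 11.5 (mutant) at the first, 14.5 and 15.8 at the second, and 18.8 and 17.7 at the third. Their H3K4me1 went from 3.24 to 5.16, from 3.05 to 3.71 and from 2.48 to 4.76. Higher H3K4me1 in the mutant was therefore measured at regions with all 17 factors and at regions with none.

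The factor content without H3K27ac was nearest to that of the most weakly acetylated regions. In classes of the H3K27ac log2 enrichment of acetylated regions, the mean number of factors was 7.32 below 0.8 (n = 614), 8.82 from 0.8 to 1, 9.67 and then 9.94 in the next 2 classes up to 1.5, 9.76 from 1.5 to 2 and 9.61 at 2 or more. The mean without H3K27ac was 6.83. These classes use the values that chose the regions and are a description. The width did not follow this order: the class below 0.8 had a median width of 1245 bp, against 538 bp without H3K27ac.

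**Figure D4:**
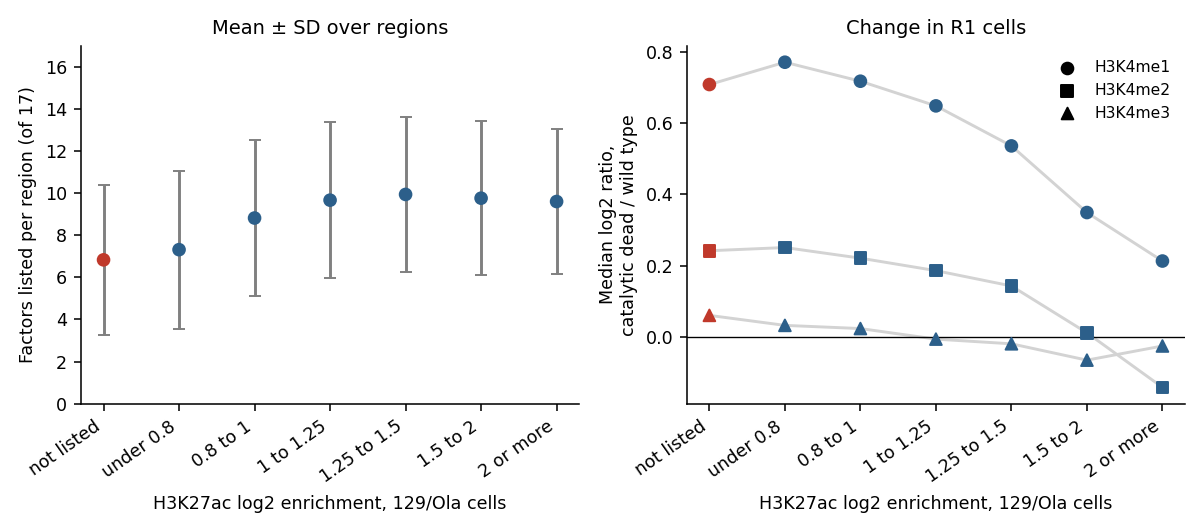
Both-mark regions by H3K27ac log2 enrichment in 129/Ola cells (x axis; red, not listed; blue, listed). Left, factors per region (mean ± SD over regions); right, median log2 ratio of the mutant to the wild-type R1 line for 3 marks: H3K4me1 is at 0.71 where H3K27ac is not listed, 0.77 in the lowest class and 0.21 in the highest.

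The marks of the regions were then followed into the R1 lines, of which 1 was wild type and the mutant carried catalytically inactive MLL3 and MLL4. An R1 H3K4me1 peak overlapped 1760 of the 2158 regions (81.6%, against 90.2% of acetylated regions), an H3K4me2 peak 1777 (82.3%, against 86.7%) and an H3K4me3 peak 1530 (70.9%, against 77.0%). All 3 marks had a peak at 1429 (66.2%, against 74.9% of acetylated regions) and none at 231 (10.7%, against 6.21%). The latter were narrow, with a median width of 246 bp. The 129/Ola and R1 cells differ in strain, culture and processing, and no H3K27ac value of R1 cells was used here. The deposited fold enrichments were out of step with the peak positions and were put back in order by chromosome. After this, the rank correlation (Spearman) of peak width and wild-type level at these regions was 0.282, 0.597 and 0.623 for H3K4me1, H3K4me2 and H3K4me3, against 0.0349, 0.0610 and 0.0128 as deposited.

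The fold enrichment of H3K4me1 was higher in the mutant line than in the wild type at most of these regions. This is a relative measure, and no absolute amount of the mark was available here. Its median fold enrichment was 2.74 in the wild type and 4.25 in the mutant, and the median log2 ratio was 0.71 (interval 0.68 to 0.74, 1760 regions). It was above 0 at 83.0% of them. The median over all H3K4me1 peaks was -0.21, and relative to that the regions were at 0.92. With the values left in the deposited layout the regions had -0.11, so the direction rests on the restored order. The ratio reached 2-fold up at 468 regions (26.6%) and 2-fold down at 73 (4.15%), where 15.2% of all H3K4me1 peaks passed the first limit and 28.4% the second. These shares depended on the scale: 6.65% were 2-fold up with a pseudocount of 1 and 43.3% with centring on the median of all peaks, and in the deposited layout 15.7% were up and 25.6% down. Without the lowest 25% of peaks, 1.48% were down. The median was above 0 on each of the 20 chromosomes, from 0.54 on chromosome 11 to 1.20 on X, the latter over 19 regions. Both-mark regions with H3K27ac had a median log2 ratio of 0.53 (0.52 to 0.55), which was lower on every chromosome, and 19.4% of them reached 2-fold up. Those with an H3K27ac log2 enrichment below 0.8 had 0.77, and those from 0.8 to 1 had 0.72. A ratio near 0.71 was therefore not particular to regions without H3K27ac. Regions with H3K4me1 alone and no H3K27ac were on the opposite side, with a median of -0.66. Those with H3K4me3 alone and no H3K27ac had 1.11.

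The higher H3K4me1 ratio than at acetylated regions went with a lower starting level. The wild-type median was 2.74 at regions without H3K27ac and 3.01 at acetylated ones, and 39.1% of the former fell in the lowest of 4 equal classes of wild-type values of both groups. Within that class the median log2 ratios were 1.04 and 1.01. In the second class they were 0.59 and 0.65, in the third both 0.36 and in the highest 0.12 and 0.02. In the lower 3 classes the regions without H3K27ac thus exceeded the others by 0.025 at most. The wild-type value is also the denominator of the ratio, and this division was chosen after the values were seen.

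The H3K4me1 ratio differed more between proximal and distal peaks than between regions without and with H3K27ac. At peaks that the authors grouped as proximal, the median log2 ratio was 0.90 without H3K27ac (797 regions, 39.1% at 2-fold up) and 0.78 with it. At distal peaks it was 0.52 (963 regions, 16.2% up and 7.06% down) and 0.25. By width, it was 0.32 up to 250 bp and between 0.55 and 0.84 in the wider classes of regions without H3K27ac, and -0.03 up to 250 bp at acetylated ones. By the number of factors it moved little without H3K27ac, from 0.64 with 4 to 6 factors to 0.78 with 10 or more. The factors listed in 129/Ola cells divided it only slightly: regions with BAF155 had 0.77 and those without 0.66, with SMC3 0.77 and 0.65, with BRG1 0.65 and 0.72.

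**Figure D5:**
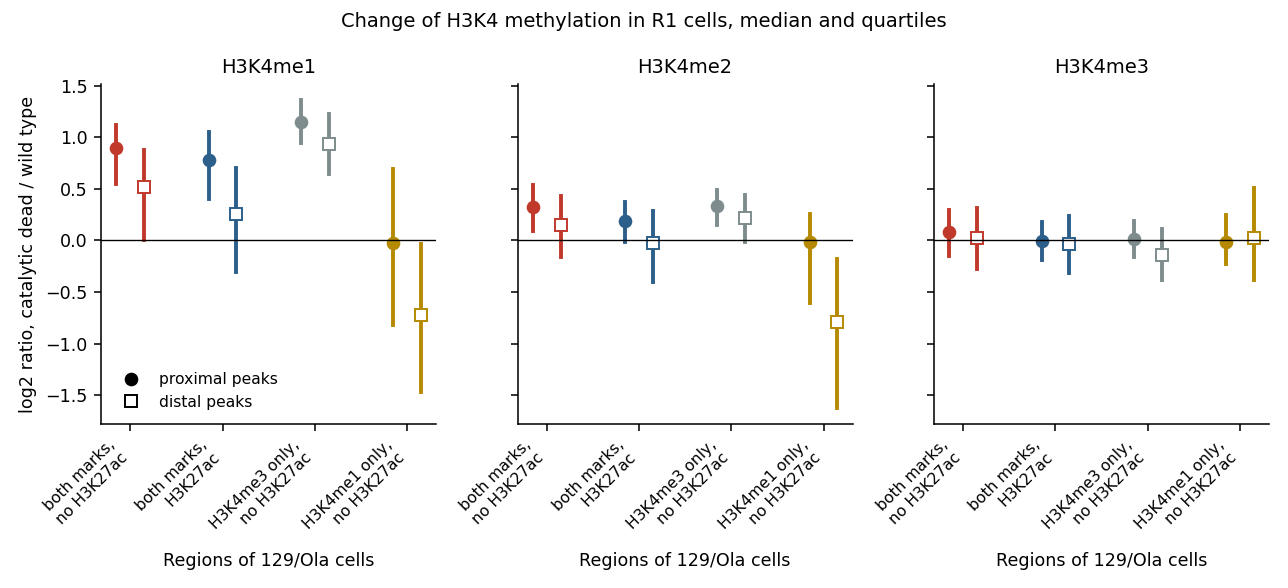
Log2 ratio of enrichment, mutant to wild-type R1 line (y axis; symbol, median; line, quartiles over regions) for proximal (filled circle) and distal (open square) peaks at 4 groups of 129/Ola regions (x axis). For H3K4me1 the regions with both marks and no H3K27ac (red) lie at 0.90 and 0.52, the acetylated ones (blue) at 0.78 and 0.25.

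H3K4me2 and H3K4me3 differed far less between the lines. The median H3K4me2 level was 6.75 in the wild type and 7.91 in the mutant, and the median log2 ratio 0.24 (0.22 to 0.26, 1777 regions). It was 0.11 at acetylated regions and -0.13 over all H3K4me2 peaks. In the deposited layout it was -0.066. The ratio was 0.33 at proximal and 0.15 at distal peaks, against 0.19 and -0.03 at acetylated regions. H3K4me2 was 2-fold up at 56 regions (3.15%) and 2-fold down at 49 (2.76%), where all H3K4me2 peaks had 1.91% and 23% on the 2 sides. With centring 5.23% were up and 1.97% down, with a pseudocount of 1 these were 1.24% and 1.13%, and in the deposited layout 2.14% and 21.0%. The higher ratio than at acetylated regions was found in each class of the wild-type level, with medians of 0.22 and -0.03 in the lowest and 0.23 and 0.17 in the highest. The most weakly acetylated regions had similar H3K4me2 ratios, however. The median was 0.25 with an H3K27ac log2 enrichment below 0.8 and 0.22 from 0.8 to 1. A ratio near 0.24 was therefore not particular to regions without H3K27ac.

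H3K4me3, the mark of promoters, had a median of 7.43 in the wild type and 7.998 in the mutant, with a log2 ratio of 0.06 at the median (0.03 to 0.08, 1530 regions). In the deposited layout it was -0.011. The ratio was -0.02 at acetylated regions, whose level was 9.57 in both lines. It was 0.03 at those with an H3K27ac log2 enrichment below 0.8 and 0.02 at those from 0.8 to 1. H3K4me3 was 2-fold up at 32 regions (2.09%) and 2-fold down at 11 (0.719%), against 3.15% and 4.48% of all H3K4me3 peaks. With a pseudocount of 1 the shares were 1.11% and 0.131%, and in the deposited layout 3.07% and 3.73%. The median was above 0 on 18 of 20 chromosomes and above that of acetylated regions on 18. In the highest class of the wild-type level the order turned, with -0.05 without and -0.03 with H3K27ac. At distal peaks the median was 0.03 with an interval of -0.01 to 0.07. That interval covers counting over regions only, so whether the lines differed there could not be tested.

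Where H3K4me1 was 2-fold up, the other marks mostly stayed within 2-fold, as they did at the regions without H3K27ac in general. Of the 1429 regions with peaks of all 3 marks, 442 had H3K4me1 2-fold up. H3K4me2 stayed within 2-fold at 410 of these (92.8%) and H3K4me3 at 428 (96.8%). At acetylated regions with H3K4me1 2-fold up the shares were 97.1% and 99.0%. Of all regions without H3K27ac that had a peak of the mark, 94.1% and 97.2% were within 2-fold. The shares of 92.8% and 96.8% were thus near that background. Of the 442 regions, H3K4me2 was also 2-fold up at 32 (7.24%), against 80 of 2772 (2.89%) at acetylated regions. This was above the share over all 1777 regions without H3K27ac that had an H3K4me2 peak, 56 (3.15%). Over all H3K4me2 peaks it was 1.91%. H3K4me1 was 2-fold down at 6 of the 1429, against 109 of 12191 acetylated regions with all 3 peaks. Among all 1760 regions with an H3K4me1 peak, 73 were 2-fold down, so most of these lacked a peak of another mark. Across the 1429 regions the log2 ratios of H3K4me1 and H3K4me2 had a Spearman rho of 0.61, those of H3K4me1 and H3K4me3 0.34 and those of H3K4me2 and H3K4me3 0.75. The points share libraries and peak positions.

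Single regions show both ends. Among those whose H3K4me1 level over both lines was above the median of all peaks, the largest ratio was at chr19:56431300-56431620, a 321 bp distal region with 12 factors. There H3K4me1 went from 1.74 to 6.29, H3K4me2 from 3.68 to 7.13 and H3K4me3 from 2.43 to 5.38. The next was chr4:123855763-123856489, of 727 bp and also with 12 factors, where H3K4me1 went from 1.67 to 5.83, H3K4me2 from 7.92 to 17.8 and H3K4me3 from 9.98 to 16.0. At the third, chr4:34136716-34137109, with 9 factors, they went from 1.61 to 5.40, 4.75 to 10.02 and 4.24 to 8.24. All 3 marks were higher in the mutant at each, and H3K4me2 was at or near 2-fold, which was the less common pattern above.

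Under the same limit on the H3K4me1 level, the 3 lowest ratios came from 1 narrow region and 2 wider ones. The narrow one had several factors and the wider ones a single factor each. Regions below that level were left out, so these need not be the lowest ratios of all. At chr12:106258200-106258434, a 235 bp distal region with 8 factors, H3K4me1 went from 4.21 to 1.46, a log2 ratio of -1.53, and no H3K4me2 or H3K4me3 peak overlapped it in R1 cells. At chr9:57400017-57402404, where SAP18 was the only factor, H3K4me1 went from 4.19 to 1.58 and H3K4me2 from 7.31 to 4.70, while H3K4me3 went from 9.67 to 8.89. At chr4:41044576-41049141, where SRSF2 was the only factor, H3K4me1 went from 4.01 to 1.75 and H3K4me2 from 9.29 to 9.60. H3K4me3 stayed close to its wild-type level at these last 2 regions, and on chromosome 4 it was 9.51 in the wild type and 9.32 in the mutant. All 3 regions lay within 3.37 kb of a region with H3K27ac.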

How the data were processed

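The authors deposited a region table of 129/Ola cells with an enrichment per factor, read here as log2 because the lowest listed value, 0.585, is the log2 of 1.5, and 3 peak tables of R1 cells whose fold (ratio) enrichments are marked FE per the file headers. H3K4me1 and H3K4me3 carry presence only in the region table. Of its 31 names 20 were used. For the other 11 the labels hold no library of these cells. Per the submitters' processing notes the build was mm9, with Bowtie, Picard and MACS2 for 129/Ola and MACS2 2.1.0.20150731, BWA 0.7.13-r1126, deepTools 2.5.1 and 2.5.3 and Picard 2.11.0 for R1. The sources used here do not say what the enrichments are relative to or how replicates were pooled.

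R1 values ran through chromosomes in number order and positions in text order, and were restored to step by chromosome blocks. Chromosome 1, where both orders coincide, gave a rho of width with wild-type enrichment of 0.215, 0.661 and 0.674 for H3K4me1, H3K4me2 and H3K4me3. Chromosomes 2 to 19 gave a mean of 0.253, 0.675 and 0.687 restored, against 0.00253, 0.00546 and -0.00380 as deposited. Each region took the R1 peak with the longest overlap, at least 1 bp. Peaks at 2-fold or more were counted as up or down by this size, not by a test. Shares have Wilson intervals, and medians intervals from order statistics. The scripts were tested on simulated data.

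Singled-out regions are the 3 with the most factors, the 3 widest, the 3 largest rises and 3 largest falls of H3K4me1 above the median level, and the 3 just past the H3K27ac limit. The regions, factors and divisions were chosen with earlier results of these data known.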

Additional observations from a re-analysis of the deposited data

How the results depend on the processing

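No paired analysis was possible because the tables give 1 value per factor or line, and for the same reason no replicate could be left out. With factors counted from a log2 enrichment of 1, the regions without H3K27ac held 3.22 factors and acetylated ones 4.90. With listed values of 1 or more alone, 5 factors had the lower median, and the cause was not tested. Weighting to equal widths turned the WSTF difference to -1.45 points. A pseudocount of 1 gave a median log2 ratio of 0.55 for H3K4me1 and 0.21 for H3K4me2. Centring on the median of all peaks, which shifts ratios by 0.21, 0.13 and 0.03, gave 0.92 for H3K4me1, 0.37 for H3K4me2 and 0.093 for H3K4me3, and turned H3K4me3 at acetylated regions to 0.015. In the deposited layout, where most peaks carry values of other peaks if the restored order is right, the medians without H3K27ac turned to -0.11 for H3K4me1, -0.066 for H3K4me2 and -0.011 for H3K4me3, and those with it to -0.16 and -0.11 for H3K4me1 and H3K4me2. With a pseudocount of 1 the median without H3K27ac was still the higher one for all 3 marks. It was also higher after centring and in the deposited layout. Centring shifts both groups alike and so could not change this order. The deposited layout is no check of it if most of its values belong to other peaks. Within classes of the wild-type level the H3K4me1 order was not kept, with 0.59 without and 0.65 with H3K27ac in the second class. Leaving out the regions within 2 kb of H3K27ac kept the mean difference of factor shares at -16.1 points. The H3K4me1 values rest on the restored order and the depth is unknown.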

Other observations

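The median gap from a region without H3K27ac to the nearest region with it was 11.6 kb (10.8 to 12.4 kb), against 4.96 kb from an acetylated both-mark region to the nearest other region with H3K27ac. Within 2 kb lay 223 of them (10.3%), against 22.6% of acetylated regions. These 223 had a median H3K4me1 log2 ratio of 0.54 in R1 cells and a mean of 7.16 factors. The 1935 others had 0.72 and 6.80. The median gap from a region without H3K27ac to the nearest other one was 201 kb, and 25 of them lay within 2 kb of another. Such gaps depend on the number of regions in each set, and no expected gap was computed.

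The share of both-mark regions without H3K27ac differed among chromosomes. It was lowest on chromosome 7, at 7.57% (107 of 1413), and chromosome 15, at 7.58%. The highest were chromosome 13, at 20.4% (119 of 584), and chromosome 3, at 18.5%. On X it was 17.3% (27 of 156).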
